A study of Homo sapiens with 2 samples.

Results

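The HOX cluster genes were described in 2 cell lines: the 39 protein-coding genes of the HOXA, HOXB, HOXC and HOXD clusters, together with the noncoding RNAs HOTAIR, HOTTIP and HOTAIRM1 that are transcribed within or beside them. Members were taken by symbol from the gene table of the series, in which 42 of 27685 listed genes matched. RNA was sequenced from H2087 cells (1 library) and H596 cells (1 library), both untreated, both grown in serum-supplemented RPMI medium, with no other treatment or genetic change given in the labels. Both are established human cell lines, and both are labelled as lung adenocarcinoma. Most of the markers given below do not bear out that label for H596. Each library stands for 1 culture of 1 line, so no value below has a replicate check and no test between the lines was made.

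HOX genes encode homeodomain transcription factors that give cells their position along the body axis. The genes of a cluster lie in a row, numbered by paralogue group, and in the embryo they are switched on in that order: low-numbered genes at the 3′ end of the cluster act towards the head, and high-numbered genes at the 5′ end act towards the tail, the digits and the urogenital tract. In the developing lung the genes in use are mainly those of the 3′ and middle part of HOXA and HOXB, among them HOXA5 and HOXB5. Polycomb proteins keep unused clusters silent, and proteins of the Trithorax group keep used ones active.

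The deposited values were an estimated read count and an FPKM per gene, where FPKM is the number of fragments per length of transcript, scaled to the size of the library. Total counts were 46961500 for the H2087 library and 55387847 for that of H596. Intervals below are exact 95% Poisson intervals of a count carried over to FPKM, or exact conditional binomial intervals of the ratio of counts between the lines after scaling to the library total. They cover counting error only. A count of 0 allows up to 3 counts, and a fold given as "at least" sets the 0 to 3 counts and takes the other count as it stands, so the start of the exact interval is given beside it. The markers of the labelled cell type differed between the lines. NKX2-1, a lung lineage factor, had an FPKM of 110 for H2087 and 0.508 for H596, and NAPSA, an aspartic protease of lung adenocarcinoma, 21.9 and 0.0645. KRT7 was high in both lines, with an FPKM of 791 and 608, while SFTPB and SFTPC were at or near 0 in both. The 4 epithelial markers EPCAM, KRT8, KRT18 and CDH1 all passed an FPKM of 1 in both lines and summed to 6527 and 894. EPCAM, KRT8 and KRT18 were lower in H596, while CDH1 was not, with 52.3 and 59.6. The 4 squamous markers TP63, KRT5, KRT6A and KRT13 summed to an FPKM of 1.94 for H2087 and 3773 for H596, and 4 of 4 were higher in H596. The 5 fibroblast markers summed to 3.90 and 10.7, mostly COL1A1 in H2087 (3.89) and DCN in H596 (9.77), with COL1A2 at 0 counts in both lines. The 3 endothelial markers summed to 0.413 and 0.816, and the 3 leukocyte markers to 0 and 0.0930, with PTPRC and CD3E at 0 counts in both. In bulk RNA, fewer cells of a type and less RNA per cell cannot be told apart. The part of these markers in the HOX values was not tested.

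Both lines expressed many HOX genes at a low to moderate level. In H2087, 23 of the 42 members (54.8%) had an FPKM of at least 1, which is called detected here. In H596, 16 members (38.1%) did. Among all listed genes, the share detected was 45.3% in H2087 and 45.5% in H596. An FPKM of at least 10 was seen for 1 member in H2087 (2.38%) and 3 in H596 (7.14%), against 22.5% and 24.3% of all genes. Members detected in both lines numbered 14 (33.3%, against 41.0% of all genes), and 17 were detected in neither. Another 9 were detected in H2087 and not in H596, and 2, HOXA13 and HOXC13, in H596 and not in H2087. Detection in 1 line only thus applied to 26.2% of the members, against 8.83% of all listed genes. A gene near the cut-off crosses it more easily. In both lines, smaller shares of the members than of all genes had 0 counts or an FPKM of at least 10. The gap is therefore not read as a trait of HOX genes. No count at all was listed for 8 members in H2087 (19.0%) and 5 in H596 (11.9%), where the shares over all genes were 36.3% and 36.0%. HOXB1, HOXC12 and HOXD12 had 0 counts in both lines and were not detectable at this depth.

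The most abundant HOX genes were not the same in both lines. HOXB7, a middle gene of its cluster, was the highest member in H2087 with an FPKM of 10.0, above 77.5% of all listed genes, followed by HOXB6 with 9.39, HOXA10 with 7.53, HOXB4 with 6.38 and HOXB9 with 5.32. The intervals of HOXB7 (9.26 to 10.8) and HOXB6 (8.73 to 10.1) overlapped, so these neighbours in the order are not told apart by counting error. In H596 the highest was HOXA10, a posterior gene known for its role in the uterus and in blood progenitors, with an FPKM of 20.4, above 85.8% of listed genes. HOXB7 followed with 16.1, HOXA3 with 10.4, HOXA13 with 9.16 and HOXC13 with 8.05. HOXA10 and HOXB7 were the only members among the highest 5 of both lines. Across the 39 coding genes, Spearman's rho of the FPKM values between the lines was 0.58, where all 27685 genes gave 0.90. All genes cover a wider range of levels, with 36.3% at 0 counts in H2087 and 36.0% in H596. The rho values are thus from unlike sets, and the gap is not read as a trait of HOX genes. The points of each rho share the same pair of libraries, and genes are not replicates.

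**Figure D1:**
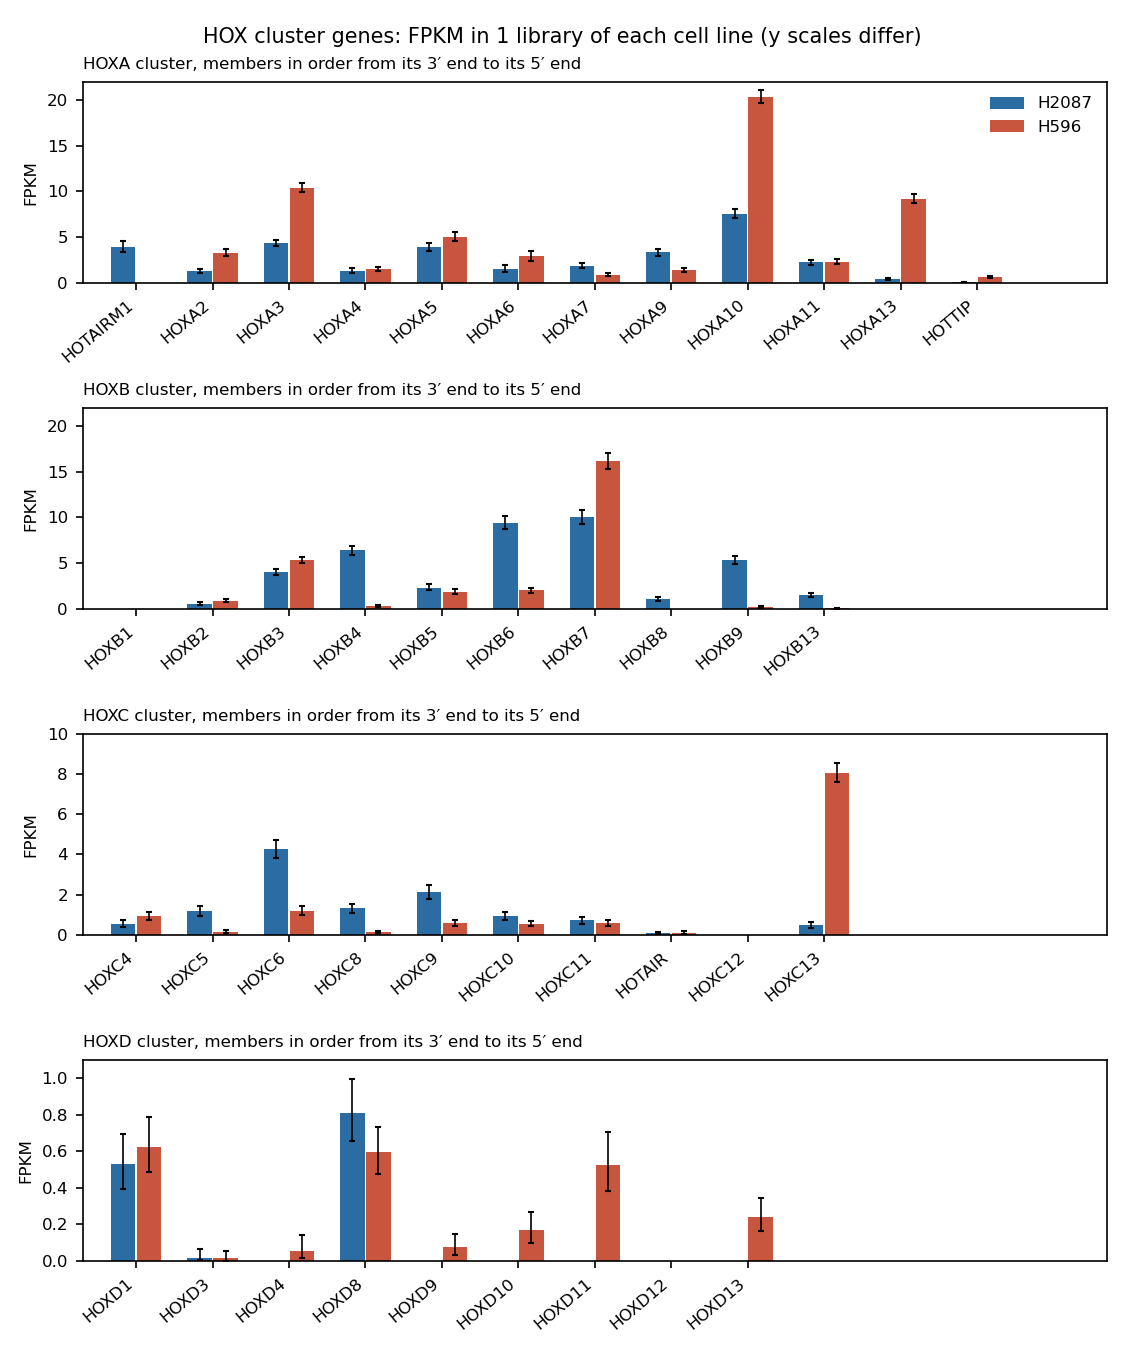
FPKM (y axis, with a scale of its own for HOXC and for HOXD) of the HOX cluster genes described here in H2087 (blue) and H596 (red), in order along each cluster, with exact 95% Poisson intervals as error bars. HOXA10 reached 20.4 in H596, HOXB4, HOXB6 and HOXB9 stood out in H2087, and HOXA13 and HOXC13 were below 0.5 in H2087 and above 8 in H596.

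The balance between the clusters differed. In H2087 the HOXB genes held the largest part of the coding HOX signal, 48.8% of the summed FPKM, and HOXA held 35.6%. In H596 HOXA held 59.7% and HOXB 26.1%. The summed FPKM of HOXA, HOTAIRM1 and HOTTIP included, was 33.5 ± 0.616 (counting SD) in H2087 and 61.7 ± 0.697 in H596, a ratio of 1.84 (95% interval, 1.77 to 1.92). That of HOXB was 40.5 ± 0.676 and 26.7 ± 0.536, a ratio of 0.659 (0.626 to 0.694). HOXC, HOTAIR included, summed to 11.6 ± 0.368 and 12.3 ± 0.317, with an interval of the ratio (0.974 to 1.14) that includes equality; the ratio was 1.05 as deposited, 0.962 after TMM scaling and 0.972 with DESeq2 size factors, so no direction is given for it. HOXD was the lowest in both lines, with 1.36 ± 0.113 and 2.30 ± 0.144.

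Split by paralogue group, the central genes (groups 4 to 8) held 55.2% of the coding HOX FPKM in H2087 and 32.8% in H596. The posterior genes (groups 9 to 13) held 29.5% and 43.2%, and the anterior genes (groups 1 to 3) 15.3% and 24.0%. Within HOXA the posterior genes added up to 13.5 and 33.2, and the central genes to 8.54 and 10.2. In HOXB the posterior sum was 6.79 for H2087 and 0.208 for H596.

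**Figure D2:**
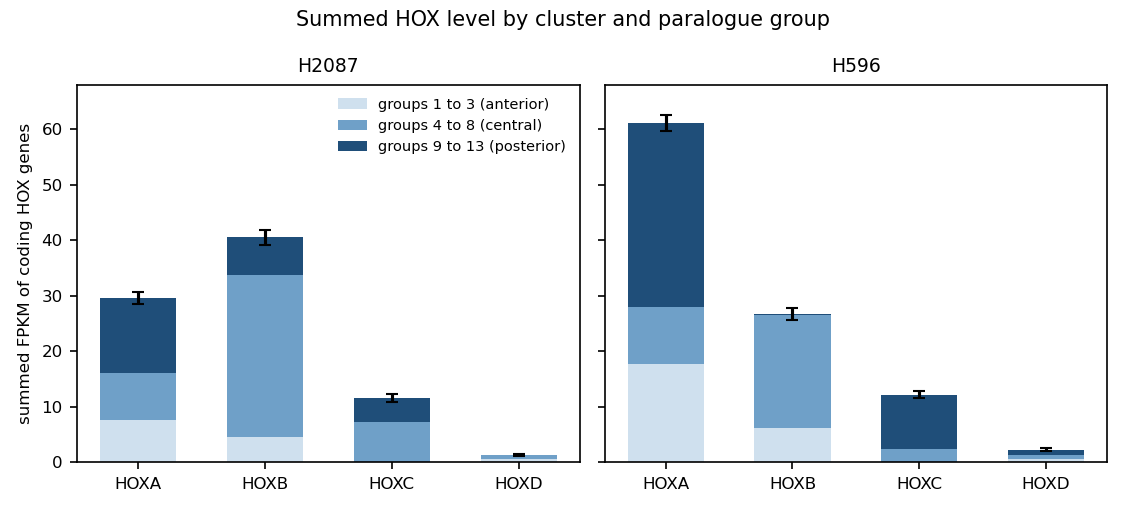
Summed FPKM of the protein-coding HOX genes (y axis) by cluster in each line, divided into anterior, central and posterior paralogue groups, with 95% counting intervals as bars on the totals. HOXB was the tallest in H2087 at 40.5 and HOXA the tallest in H596 at 61.1, and the posterior part of HOXB is not visible in H596 at 0.208.

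Gene by gene, a 2-fold difference on the log2(FPKM + 1) scale, H596 relative to H2087, was called where the FPKM averaged over the lines was at least 1. This scale understates the changes of low genes. Of the 42 members, 21 passed this filter and 21 did not. Of those that passed, 4 (19.0%) were called higher in H596, HOXA3, HOXA10, HOXA13 and HOXC13, where 18.2% of all tested genes were. Another 5 (23.8%) were called lower, HOXB4, HOXB6, HOXB9, HOXC6 and HOTAIRM1, where 14.2% of all tested genes were. Of the 21 tested members, 7 passed only through the line in which they were high, and these include HOXA13, HOXC13, HOXB4, HOXB9 and HOTAIRM1, so the counts are a description. The median difference of the 21 was 0.12, as was that of all 13048 genes tested. By the count ratios, which need no filter, 17 of the 39 members with any count (43.6%) had an interval wholly above 1, 14 (35.9%) wholly below 1, and 8 an interval holding 1. The corresponding shares over all genes with any count were 43.3% and 36.6%. By the count ratios, the shares of HOX genes higher and lower were therefore close to those of all genes. Whether such an interval holds 1 depends on the number of counts as well as on the difference. By the 2-fold call, the share higher was close to that of all tested genes and the share lower was above it, with 21 members tested. The members that differed most are described by cluster.

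**Figure D3:**
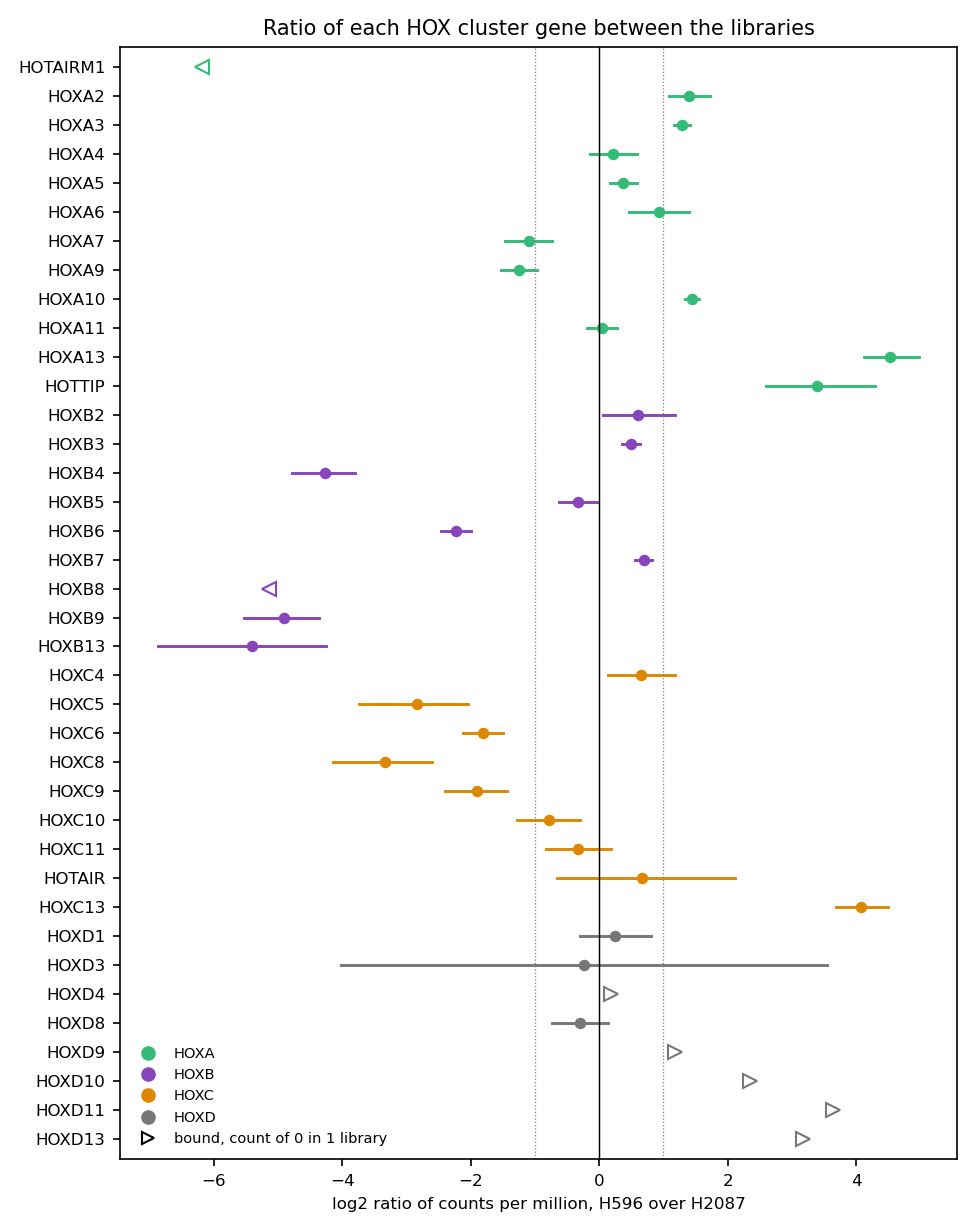
Ratio of library-scaled counts, H596 over H2087, on a log2 axis for the members described here with any count, coloured by cluster, with exact 95% intervals as lines. Open triangles mark bounds for members with 0 counts in 1 library, set from 3 counts, and dotted lines mark 2-fold. HOXA13, HOTTIP, HOXC13 and the bounds of HOXD11 and HOXD13 lie to the right of 3 on this axis, HOXB4, HOXB8, HOXB9, HOXB13 and HOTAIRM1 to the left of -4.

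The HOXA cluster spans 114 kb on chromosome 7 of hg19, and its HOX genes are read from the minus strand. HOXA2, which patterns the hindbrain and pharyngeal arches, had an FPKM of 1.24 for H2087 and 3.27 for H596, and HOXA3, needed for the thymus and parathyroid, 4.30 and 10.4. Both were therefore higher in H596, with count ratios of 2.64 (95% interval, 2.11 to 3.32) and 2.45 (2.24 to 2.67). Of the pair, HOXA3 alone passed 2-fold on the log2(FPKM + 1) scale, with a difference of 1.105, and it was below 2-fold with TMM factors.

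The central HOXA genes went both ways. HOXA4 had an FPKM of 1.29 for H2087 and 1.49 for H596, and the interval of its ratio (0.902 to 1.51) held 1. HOXA5, a gene of lung development, had 3.90 and 5.03, a ratio of 1.29 (1.12 to 1.498). HOXA6 had 1.53 and 2.88, with a ratio of 1.90 (1.39 to 2.62). The next 2 genes along the cluster, the last central and the first posterior one, went the other way. HOXA7 had an FPKM of 1.82 for H2087 and 0.842 for H596. HOXA9, a posterior gene of blood progenitors and leukaemia, had 3.31 and 1.39. These 2 genes were 2.14-fold (1.66 to 2.77) and 2.38-fold (1.97 to 2.89) lower in H596 by counts. HOXA7 and HOXA9 thus sat as a pair of lower genes between HOXA6 and HOXA10, which were both higher.

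In the posterior part, HOXA10 (gene 3206) had an FPKM of 7.53 (95% interval, 7.05 to 8.03) for H2087 and 20.4 (19.6 to 21.1) for H596, a count ratio of 2.71 (2.52 to 2.92). HOXA11, which shapes the forearm and the reproductive tract, had 2.23 and 2.28, and the interval of its ratio (0.875 to 1.21) held 1. HOXA13 (gene 3209), the last gene of the cluster, which acts in the digits and the urogenital tract, had an FPKM of 0.396 (0.292 to 0.525) from 48 counts for H2087 and 9.16 (8.67 to 9.67) from 1308 counts for H596. This 23.1-fold difference (17.3 to 31.5) was the largest among the HOXA members with counts in both lines. Neighbouring HOXA genes therefore differed by very unequal amounts, from near equality in HOXA11 to over 17-fold in HOXA13.

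HOTTIP, a noncoding RNA known to carry the WDR5 and MLL complex to the 5′ HOXA genes, lies on the plus strand, 314 bases from HOXA13, so that both genes point away from a shared start region. Like HOXA13 it was higher in H596: it had an FPKM of 0.0620 from 14 counts for H2087 and 0.653 from 173 counts for H596, a ratio of 10.5 (95% interval, 6.08 to 19.6), while staying below 1 in both lines. The RefSeq promoter windows of both genes reach from 250 bases before to 50 after the start. They are shown because these neighbours are read away from each other and were both higher in H596. Each window matches the hg19 genome exactly once, at chr7:27239661-27239960 on the minus strand for HOXA13 and chr7:27239790-27240089 on the plus strand for HOTTIP. Capitals mark the 171 bases that lie in both windows, which makes the capital part of one the reverse complement of the other.
HOXA13: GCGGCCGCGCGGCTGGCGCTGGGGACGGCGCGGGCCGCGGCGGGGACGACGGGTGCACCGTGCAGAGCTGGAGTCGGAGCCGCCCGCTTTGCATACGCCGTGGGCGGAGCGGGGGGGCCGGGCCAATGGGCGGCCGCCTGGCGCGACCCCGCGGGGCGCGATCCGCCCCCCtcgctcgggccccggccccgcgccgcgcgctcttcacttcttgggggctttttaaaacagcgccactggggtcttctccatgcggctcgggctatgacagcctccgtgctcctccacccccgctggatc
HOTTIP: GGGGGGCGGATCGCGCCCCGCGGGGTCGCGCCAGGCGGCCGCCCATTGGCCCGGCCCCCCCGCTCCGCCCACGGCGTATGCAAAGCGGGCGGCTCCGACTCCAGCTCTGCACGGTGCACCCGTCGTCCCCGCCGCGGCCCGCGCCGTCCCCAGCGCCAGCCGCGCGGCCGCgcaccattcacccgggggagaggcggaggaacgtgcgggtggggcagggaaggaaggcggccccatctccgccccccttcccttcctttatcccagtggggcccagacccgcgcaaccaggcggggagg
The starts of these windows are 330 bases apart. Their GC content was 76.3% and 78.0%, near the top of the range over the members' available windows (43.7% to 78.0%). The ratio of observed to expected CpG was 1.01 and 0.903, against a median of 0.577 over all 34943 windows.

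HOTAIRM1, a noncoding RNA of myeloid differentiation, lies at the other end of the cluster on the plus strand, 95 bases from HOXA2. It had an FPKM of 3.91 (95% interval, 3.37 to 4.51) from 185 counts in H2087 and was listed at 0 counts in H596, at least 72.7-fold lower (interval from 58.6), while HOXA2 was higher in H596. HOTTIP and its neighbour HOXA13 therefore differed in the same direction between the lines, and HOTAIRM1 and its neighbour HOXA2 in opposite directions.

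The HOXB cluster spans 199 kb on chromosome 17, from 46606807 to 46806111, also on the minus strand. HOXB4 (gene 3214), known for expanding blood stem cells, had an FPKM of 6.38 (95% interval, 5.89 to 6.90) from 622 counts for H2087 and 0.326 (0.231 to 0.448) from 38 counts for H596, 19.3-fold lower (13.9 to 27.5). HOXB6 had 9.39 and 2.003, 4.66-fold lower (3.97 to 5.49). HOXB9 (gene 3219) had 5.32 from 688 counts and 0.176 from 27 counts, 30.1-fold lower (20.5 to 45.9).

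HOXB8, a gene of myeloid progenitors, had an FPKM of 1.02 from 90 counts in H2087 against 0 counts in H596, at least 35.38-fold lower (interval from 28.2). HOXB13, a prostate lineage factor at the isolated 5′ end of the cluster, had 1.48 from 215 counts and 0.0329 from 6 counts, 42.3-fold lower (19.1 to 116). Both had a mean FPKM below 1 and so were outside the 2-fold call. Both posterior HOXB genes were thus far lower in H596.

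The remaining genes of the cluster differed less. HOXB7, which lies between HOXB6 and HOXB8, had an FPKM of 10.0 for H2087 and 16.1 for H596, a ratio of 1.61 (95% interval, 1.47 to 1.78). HOXB5, a gene of airway branching, had 2.32 and 1.84, a ratio of 0.794 (0.648 to 0.972), which includes equality when the values are scaled as TPM. HOXB3 had 4.03 and 5.36, a ratio of 1.41 (1.27 to 1.55). Its listed span covers the whole of HOXB4 only through the transcript NM_001330322, which had 0 counts in H2087 and 4 in H596.
HOXB2 had 0.569 and 0.868, with an interval (1.04 to 2.25) that includes equality after TMM scaling, and HOXB1, which patterns the hindbrain, had no counts. The cluster was therefore not lower in H596 as a block: HOXB4, HOXB6, HOXB8, HOXB9 and HOXB13 were over 3-fold lower by the intervals of their ratios, while HOXB3 and HOXB7 were higher.

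The HOXC cluster spans 117 kb on chromosome 12, from 54332576 to 54449814, on the plus strand. Its 5′ gene HOXC13 (gene 3229), which controls hair and nail keratins, had an FPKM of 0.472 (95% interval, 0.355 to 0.614) from 55 counts for H2087 and 8.05 (7.58 to 8.54) from 1095 counts for H596, a ratio of 16.9 (12.9 to 22.6). Without HOXC13, the summed FPKM of the cluster would be 11.1 in H2087 and 4.21 in H596. An antisense RNA that overlaps its start, HOXC13-AS, had 0 counts in H2087 and an FPKM of 10.5 from 841 counts in H596, at least 237.7-fold higher (interval from 193). The listed spans of the gene and the antisense RNA share 852 bases. The libraries were stranded, but whether strand was used in counting is not given in the sources used here, so reads in the shared stretch may have been assigned to either gene.

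The middle of the cluster was lower in H596. HOXC6 had an FPKM of 4.26 for H2087 and 1.19 for H596, 3.49-fold lower by counts (95% interval, 2.83 to 4.33). HOXC9 had 2.12 and 0.566, 3.73-fold lower (2.69 to 5.26), and just short of the call on the log2(FPKM + 1) scale. HOXC8, a thoracic patterning gene, had 1.31 and 0.124, 10.1-fold lower (6.07 to 17.7).
HOXC5 had 1.17 and 0.156, 7.16-fold lower (4.12 to 13.3). HOXC10, a gene of lumbar motor neurons and the hindlimb, had 0.938 and 0.542, 1.72-fold lower (1.23 to 2.42). HOXC4, at the 3′ end, had 0.551 and 0.942 and was the other HOXC gene with an interval above 1 (1.101 to 2.28).
HOXC11 had 0.718 and 0.576, with an interval of the ratio (0.564 to 1.13) holding 1, and HOXC12 had no counts. HOTAIR, a noncoding RNA known to bind Polycomb repressive complex 2 and to act on HOXD, was close to absent in both lines, with 8 counts and an FPKM of 0.0700 in H2087 against 15 counts and 0.110 in H596. The interval of its ratio (0.633 to 4.33) held 1, and its listed span overlaps that of HOXC11 by 1831 bases.

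The HOXD cluster, 98.1 kb on chromosome 2 from 176957532 to 177055635, had no member with an FPKM of 1 in either line. In H2087 the signal came from HOXD8, with an FPKM of 0.810 from 92 counts, and HOXD1, with 0.527 from 50 counts, and the only other counts were 2 in HOXD3. In H596 these genes had 0.595, 0.621 and 0.0153, and all 3 intervals of the ratio held 1. The posterior HOXD genes had counts in H596 alone. HOXD11 had 44 counts (FPKM 0.526), HOXD13, the digit gene of this cluster, 32 counts (0.242), HOXD10 18 counts (0.168) and HOXD9 8 counts (0.0746), each against 0 in H2087. These are at least 12.4-fold, 9.04-fold, 5.09-fold and 2.26-fold higher, with exact intervals that start at 9.70, 6.94, 3.73 and 1.45, at levels far below those of HOXA10 or HOXA13. HOXD4 had 4 counts in H596 and 0 in H2087, and the interval of that ratio, which starts at 0.560, did not exclude 1.

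Read across the clusters by paralogue group, whose members are the most alike in protein sequence, the fold between the summed FPKM of the lines was largest in groups 13 (7.46) and 9 (4.88). The 4 genes of group 13 summed to an FPKM of 2.34 for H2087 and 17.5 for H596. HOXB13 supplied 1.48 of the sum in H2087, and HOXA13 and HOXC13 supplied 9.16 and 8.05 in H596, so the main gene of the group differed between the lines. Group 9 went the other way, with 10.7 and 2.20, with HOXA9, HOXB9 and HOXC9 all lower in H596. HOXD9 was the exception, with 8 counts against 0. Group 8 had 3.14 and 0.718, group 6 15.2 and 6.08 and group 4 8.22 and 2.81, the last through HOXB4 alone, since HOXA4 and HOXC4 were not lower. Group 10 had 8.46 and 21.1, almost wholly through HOXA10, and group 3 8.35 and 15.8 through HOXA3 and HOXB3. Groups 5 (7.39 and 7.02) and 11 (2.95 and 3.38) had the sums nearest to each other.

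For several HOX genes the listed transcripts, which begin at different starts, were used in different proportions. How reads in shared exons were split among transcripts is an estimate of the authors' software, and the intervals do not cover its error. HOXA3 has a transcript that begins at 27166639, NM_153631, and a transcript that begins at 27159214, NM_030661. The first of these supplied 79.7% of the HOXA3 FPKM in H2087 and 100% in H596, where the other had 1 count. The listed span of the antisense RNA HOXA-AS2, described below, overlaps that of HOXA3 by 5102 bases, at the start of NM_153631. Whether strand was used in counting is not given, so reads there may have been assigned to either gene. This limit holds for the HOXA3 level as well as for this share. In HOXB3, NM_002146 supplied 69.8% in H2087 and 88.3% in H596, and NM_001330323 30.2% and 11.4%. In H596, 1 transcript thus made up a larger share of both genes than in H2087.

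HOXC4, HOXC5 and HOXC6 each have a transcript from 1 common start at 54410636 besides a transcript from an own start. In H2087 the common start had 62 counts in HOXC6, 13 in HOXC4 and 0 in HOXC5, where all 91 counts lay on the transcript from the own start. In H596 it had 30 counts in HOXC6, 3 in HOXC4 and 15 in HOXC5, and the own start of HOXC5 was listed at 0. The share of HOXC6 from the common start was 14.6% in H2087 and 21.1% in H596, and that of HOXC4 20.3% and 1.91%. No single shift of starts therefore described all 3 genes. The RefSeq window of the common start, listed with the same letters for HOXC4 and HOXC5, is shown because these genes share it. It lies at chr12:54410422-54410721 on the plus strand, its start is 36 bases from the listed one, and capitals mark its 1 match to the TTTATNG motif, explained below.
HOXC4 and HOXC5: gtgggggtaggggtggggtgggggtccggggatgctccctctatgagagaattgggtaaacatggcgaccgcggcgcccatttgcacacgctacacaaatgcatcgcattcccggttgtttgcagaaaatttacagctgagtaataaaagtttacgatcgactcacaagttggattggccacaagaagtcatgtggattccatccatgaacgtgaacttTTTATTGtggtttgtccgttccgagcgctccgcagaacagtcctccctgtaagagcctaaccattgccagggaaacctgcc

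**Figure D4:**
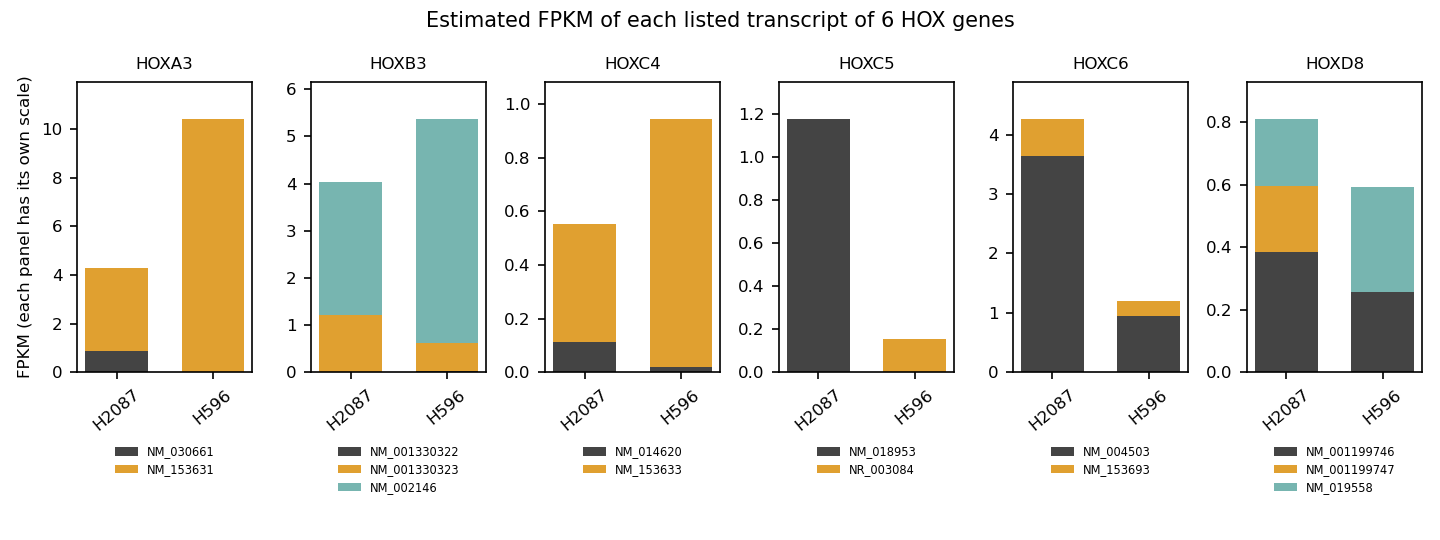
Estimated FPKM of each listed transcript (y axis, with a scale of its own in each panel) of 6 HOX genes in H2087 and H596, stacked and coloured by transcript. HOXA3 came almost wholly from NM_153631 in H596, and HOXC5 from NM_018953 in H2087 but from NR_003084 in H596.

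HOXA10, the highest member in H596, has a transcript NM_018951 with 928 of 928 counts in H2087 and 2948 of 2967 in H596, and a noncoding one that starts at 27219880, NR_037939, with the other 19. The window of its main start, at chr7:27213890-27214189 on the minus strand, is shown as that of the most abundant HOX gene, with its 1 match to the TATAAA motif, on the opposite strand, in capitals.
HOXA10: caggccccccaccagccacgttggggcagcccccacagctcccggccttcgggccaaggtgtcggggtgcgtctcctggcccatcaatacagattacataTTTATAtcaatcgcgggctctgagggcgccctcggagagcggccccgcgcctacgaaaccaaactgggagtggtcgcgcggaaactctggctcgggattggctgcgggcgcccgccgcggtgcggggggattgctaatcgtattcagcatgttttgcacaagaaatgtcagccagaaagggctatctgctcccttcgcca

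Promoter windows were available in the RefSeq table for 21 of the 42 members, as 27 distinct windows, and 4 motifs were searched in them on both strands. The windows came mostly from HOXA and HOXD. HOXB1 was the only HOXB gene with a window, and HOXC4 and HOXC5, which share theirs, the only HOXC genes. The values below therefore hardly cover HOXB and HOXC. HOXA3 had several windows, and some lay far from any listed start of the gene, up to 25563 bases. TGATTNAT, which dimers of PBX and HOX proteins bind, was found in 2 windows, those of HOXA2 and HOXD11, and in 2.82% of all windows. TTTATNG, a letter pattern of CDX and posterior HOX proteins, was found in 6 windows and 9.75% of all, TATAAA in 5 windows and 11.6% of all, and AGGTCA, a retinoic acid receptor element, in 0 windows and 13.8% of all. The median GC content was 58.0% over the members' windows and 58.7% over all, and the median ratio of observed to expected CpG was 0.860 and 0.577. A match of letters is a description of the window and not a binding site.

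Besides the members, 24 genes are listed within the spans of the 4 clusters. Of these, 8 are microRNA hairpins, with at most 1 count, which a poly(A) library does not measure well, and 6 of the other 16 had 0 counts in both lines. The antisense RNAs that were expressed followed no common direction. HOXA-AS2, which spans the start of NM_153631 of HOXA3, had an FPKM of 0.363 for H2087 and 6.97 for H596, a ratio of 18.5 (95% interval, 11.7 to 31.1), in the direction of HOXA3. HOXA10-AS, which overlaps HOXA10 by 1325 bases, had 5.89 from 328 counts and 0.0911 from 7 counts, 55.3-fold lower (26.5 to 139), against the direction of HOXA10. Whether strand was used in counting is not given, so reads in this overlap may have been assigned to either gene. This limit holds for the HOXA10 level as well. HAGLR, which runs from beside HOXD3 into the start of HOXD1, an overlap of 380 bases, had 2.66 and 1.09. These values were more than any HOXD gene had in either line. The limit on strand holds for HAGLR and HOXD1 too. HOXA11-AS had 3.16 and 2.14, and HOXA-AS3, at 67 counts in H596 and 0 in H2087, overlaps HOXA5, HOXA6 and HOXA7.

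The nearest genes outside the clusters, 3 on each side, 24 in all, were given for context, and 10 of them had 0 counts in both lines. Beside HOXA, SKAP2 had an FPKM of 29.3 and 46.3 and HIBADH 35.1 and 77.7, both higher in H596, as were 7 of the 11 coding HOXA genes (63.6%) and 43.3% of all genes with any count by the intervals of their ratios. EVX1, a homeobox gene 35285 bases beyond HOTTIP, had 7 counts and 82 counts, higher in H596 like HOXA13 and HOTTIP. Beside HOXB, SKAP1 had 10.6 and 0.0221, 471-fold lower by counts (95% interval, 130 to 3893), while CALCOCO2, 102238 bases past HOXB13, had 15.2 and 15.6. Beside HOXC, CALCOCO1 had 8.72 and 9.02 and ATP5G2 213 and 118, and no other neighbour had more than 2 counts. Beside HOXD, LINC01116 had 0.149 and 17.8, a ratio of 113, and MTX2 and LNPK differed by ratios of 0.861 and 1.18. ATP5G3, on the other side of HOXD, had 43.0 and 17.9 and was called lower.

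HOX proteins bind DNA together with the TALE homeodomain proteins of the PBX, MEIS and PKNOX families. Of 9 such genes, 7 passed the filter, 4 were called higher in H596 and 0 lower, with a median difference of 1.17. Over all tested genes 18.2% were called higher and 14.2% lower, with a median of 0.12, the shares that the counts of the Polycomb, Trithorax and upstream genes stand beside too. Among those called, MEIS1 had an FPKM of 1.41 for H2087 and 7.56 for H596, a ratio of 5.36 (95% interval, 4.64 to 6.22). MEIS2 had 8.37 and 33.0, and PBX2 15.0 and 35.1. PBX3 (7.36 and 4.90), PBX4 (1.01 and 1.46) and PKNOX1 (4.84 and 4.66) were not called, MEIS3 (0.221 and 1.38) had a mean below 1, and PKNOX2 had no counts. The summed FPKM of the coding HOX genes was 83.0 and 102.

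The genes that hold HOX clusters silent or active were expressed in both lines. Of the 23 Polycomb genes, all had an FPKM above 1 in both lines. Among the 3 called higher, JARID2, which guides Polycomb repressive complex 2, had 4.81 and 17.7, and RING1 19.9 and 50.7. BMI1 had 22.2 and 8.11, CBX6 48.5 and 21.99 and PHC2 66.0 and 25.4, and these 3 were called lower. EZH2, the methyltransferase of the complex, had 20.3 and 12.9 and was not called. The median difference of the 23 was 0.03. Of the 11 Trithorax and related genes, KDM6A, a demethylase that removes the Polycomb mark, was called higher (3.56 and 13.3) and DPY30 lower (123 and 51.7), with a median of 0.11. Of 8 upstream genes, RARB, a retinoic acid receptor, had 0 counts in H2087 and an FPKM of 5.67 in H596, at least 277.5-fold higher (interval from 225), and GMNN had 23.2 and 51.4. The CDX genes, which activate posterior HOX genes in the embryo, had 0 counts in both lines, and RARA, RARG and CTCF were not called.

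**Figure D5:**
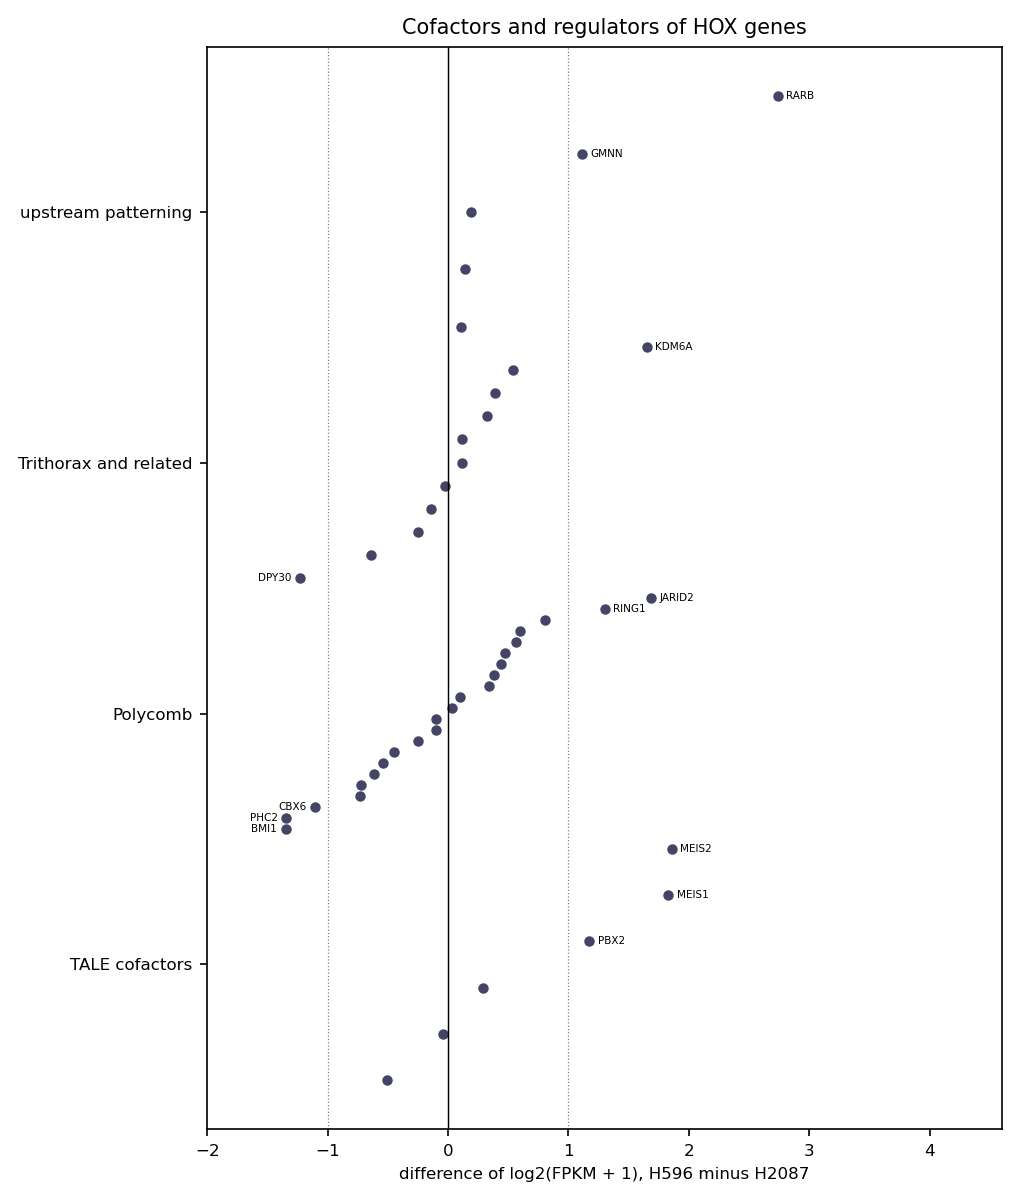
Log2(FPKM + 1) of H596 less that of H2087 (x axis), of tested genes in 4 lists of HOX cofactors and regulators, with dotted lines at 2-fold and the genes called at 2-fold named. The TALE cofactors MEIS1, MEIS2 and PBX2 lie beyond 2-fold towards H596, while the Polycomb genes spread to both sides of 0 around a median of 0.03.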

How the data were processed

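RNA was measured in 1 library of H2087 and 1 of H596. The authors prepared stranded mRNA libraries from total RNA for Illumina sequencing. The submitters' processing notes name hg19, HISAT2 2.0.5 and StringTie 1.3.3b; how counts were derived, and whether strand was used, is not given in the sources used here. Per gene, the authors gave estimated counts as whole numbers, treated here as rounded expected counts without further rounding. The deposited FPKM, scaled by the authors to transcript length and library size, was used as it stands. The gene value of each of the 42 members was the sum of its transcripts to within 0.001. Positions are those of the deposited table, strands those of GENCODE 44 on GRCh37, and promoter windows those of RefSeq (GRCh38.p14), placed on GRCh37 by exact match.

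Members are all symbols of the form HOX, a cluster letter and a number, with HOTAIR, HOTTIP and HOTAIRM1. Single values of some members and listed genes are not reported here, while counts and sums over sets include them. The members and lists were chosen with earlier results of these data known. The other genes named are those within the clusters, the 3 nearest on each side and, of 4 lists of cofactors and regulators, those called at 2-fold or at 0 counts in 1 library, and, chosen after their values were seen, PBX3, PBX4, PKNOX1, PKNOX2, MEIS3, EZH2, the CDX genes, RARA, RARG and CTCF. No test or p-value was computed. Differences were taken on log2(FPKM + 1) where FPKM averaged at least 1, over the whole table. Counting intervals (95%) used scipy 1.17.1 in Python 3.11.15, and the limit for a count of 0 was 3 counts, turned into a fold per library. Intervals and calls were tested on simulated data. Scaling by edgeR 4.0.16 and DESeq2 1.42.0 in R 4.3.3 was an alternative, besides TPM, other thresholds, another pseudocount and transcript values.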

Additional observations from a re-analysis of the deposited data

How the results depend on the processing

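No paired analysis was possible because H2087 and H596 each had a single library, so leaving out a library was not possible either. The number of members detected in H2087, 23, became 1 at an FPKM of 10. In H596 the 16 became 33 at an FPKM of 0.1, 3 at 10 and 26 in TPM, so the order between the lines reversed at the thresholds of 0.1 and 10. Among members with a mean FPKM of at least 10, 1 was called higher and 0 lower, since fewer genes were examined. The 5 called lower became 8 with a pseudocount of 0.1, where HOXA7, HOXA9 and HOXC9 were added, 8 with no filter, where HOXB8, HOXC8 and HOXB13 were added, and 10 in TPM. With TMM factors or centring HOXA3 was no longer called higher and HOXC9 was called lower. The median difference of 0.12 became 0.0052 on centring, by construction.

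Summed as TPM, which multiplies each library by 1 factor, the clusters came to 71.6 and 149.7 (HOXA, H2087 and H596), 86.5 and 64.8 (HOXB), 24.8 and 29.7 (HOXC) and 2.89 and 5.57 (HOXD). Without HOXA10 the HOXA sums were 26.0 and 41.4, without HOXB7 those of HOXB 30.5 and 10.6, without HOXC13 that of HOXC in H596 4.21, and without HOXD8 those of HOXD 0.545 and 1.70. The coding genes of HOXA alone summed to 29.6 in H2087. In alternatives chosen after seeing the data, the H596 to H2087 ratio was 1.68, 2.09 and 1.70 for HOXA, 0.601, 0.749 and 0.608 for HOXB and 0.962, 1.20 and 0.972 for HOXC with TMM factors, TPM and DESeq2 factors. By the same scalings, HOXB2 (TMM and DESeq2), HOXA4 and HOXB5 (TPM) changed their side of an interval that holds 1. By the highest single transcript, 7 members moved beyond counting error. Depth limits the HOXD values and HOTAIR.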
